A study of Mus musculus with 9 samples.

Results

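The genes described here are 10 components of the pathway that carries the signal of leukemia inhibitory factor (LIF) into mouse embryonic stem cells: the ligand Lif, the receptor chains Lifr and Il6st, the kinases Jak1 and Jak2, the transcription factor Stat3, the feedback inhibitor Socs3, and the targets Pim1, Pim3 and Bcl3. They were chosen by name, with earlier results of these data known, and all 10 were found among the 24819 genes of the expression table. RNA of E14 cells, an established mouse embryonic stem cell line, was sequenced after stable culture on gelatin in 3 media, with 3 libraries each and 9 in all. ES medium holds serum (15%) and LIF (1000 U/mL). 2iLIF is serum-free N2B27 medium with LIF and 2i, as background a pair of inhibitors of the kinases MEK and GSK3, and EPSCM is expanded potential stem cell medium. The sources used here do not give the recipe of EPSCM, including any LIF in it, or the LIF dose in 2iLIF. A single cell line was used with no genetic change named. The labels do not tell whether the libraries of a medium are separate cultures, so p-values measure the spread between libraries alone, which may be technical.

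LIF binds its receptor LIFR, which pairs with GP130, the product of Il6st and the signalling chain shared by cytokines of the IL6 family. JAK kinases attached to the receptor tails then phosphorylate STAT3, which enters the nucleus and switches on target genes, among them Socs3, whose protein blocks the receptor and its kinases. In mouse embryonic stem cells this pathway sustains self-renewal in serum medium. The data are RNA levels, so the phosphorylation of STAT3, which is the active step, was not measured.

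Levels are FPKM, fragments per kilobase of transcript and per 1e6 fragments, which can be compared between genes because they are per length. A difference is a log2(FPKM + 1) value of one medium minus another, with its SE, on a scale that understates the change of genes near 1 FPKM. Differences were tested with limma, with p-values adjusted over all 12330 tested genes. A call needs both an adjusted p below 0.05 and a log2 difference of 1 or more in size, which is the fold limit. By this rule 19.7% of tested genes were called between EPSCM and ES, 16.1% between EPSCM and 2iLIF and 14.7% between 2iLIF and ES. Of the genes called between EPSCM and 2iLIF, 63.2% were higher in EPSCM, and 52.8% after quantile normalization. Between EPSCM and ES the share higher in EPSCM was 59.4% (1440 higher, 983 lower) and turned to 49.5% (1141 and 1162) after quantile normalization. The sources used here do not give the depth of the libraries. An estimate from low values was tied to a window set in advance, so no depth is given. The embryonic stem cell markers Pou5f1, Sox2, Nanog, Zfp42, Esrrb and Fgf4 summed to 2639 to 3065 FPKM in ES, 2345 to 2670 in 2iLIF and 1558 to 1773 in EPSCM. By adjusted p alone 5 of the 6 were lower in EPSCM than in ES and 1, Fgf4, was higher. Of all 12330 tested genes 3882 were lower and 5133 higher by that measure, 73.1% in both directions together. Of the 6, Pou5f1 and Zfp42 were called lower and 0 higher, against 7.97% and 11.7% of all tested genes. The mean of Pou5f1 went from 1352 FPKM in ES to 627 in EPSCM, and that of Fgf4 from 85.3 to 165. Of 8 fibroblast markers, 6 were under 1 FPKM in every library, including Col1a1, Col1a2, Col3a1 and Dcn. The list summed to 14.99 to 17.6 FPKM in ES, 3.75 to 4.18 in 2iLIF and 10.9 to 13.7 in EPSCM. Thy1 held most of the ES sum, with means of 14.4, 0.41 and 6.02 FPKM in ES, 2iLIF and EPSCM. Pdgfrb went another way, at 1.29, 3.28 and 5.74 FPKM. The 8 primitive endoderm markers summed to 6.16 to 6.71, 3.001 to 3.38 and 9.82 to 10.5 FPKM in the same order, with Sox17, Foxa2 and Cubn under 1 FPKM throughout. Sox7 was highest in ES, with means of 2.79, 0.0422 and 0.0315 FPKM. Gata4, at 0.817, 1.19 and 3.22 FPKM, and Gata6, at 0.675, 0.258 and 3.17, were highest in EPSCM. The 8 trophoblast markers summed to 12.2 to 14.3, 56.1 to 64.9 and 18.8 to 21.97 FPKM, with Elf5, Gata3 and Krt7 under 1 FPKM throughout and Krt8 holding most of the 2iLIF sum. Cdx2 was also highest in 2iLIF, with means of 0.109, 2.85 and 0.0411 FPKM. Eomes, at 1.03, 3.30 and 4.40 FPKM, Krt18, at 4.22, 4.61 and 7.42, and Hand1, at 0.139, 0.0340 and 0.866, were highest in EPSCM. The part of these markers in the results below was not tested. A single library of each medium, namely ES replicate 1, 2iLIF replicate 1 and EPSCM replicate 2, stands apart from the other 2, called the close libraries here. In the sample titles the libraries standing apart are numbers 16, 18 and 19. They were named without a computed criterion. Leaving out or fitting a library that lies far from the others narrows the spread by itself, so smaller p-values found that way are no support.

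Of the upstream components, Lif, Lifr, Il6st, Jak1 and Stat3 differed by at most 1.66-fold between the means of any 2 media, and Jak2 by 3.98-fold. The feedback inhibitor and the targets went separate ways. In 2iLIF Socs3 was 5.10-fold lower than in ES, Pim3 2.41-fold and Bcl3 2.09-fold, whereas the mean of Pim1 was 1.56-fold that of ES. In EPSCM Socs3 and Pim3 lay between the other media, Bcl3 beside 2iLIF and Pim1 above both. As in any bulk sample, fewer cells of a type and less RNA per cell cannot be told apart.

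Between 2iLIF and ES 3 of the 10 members were called, all lower in 2iLIF, where 7.12% of all tested genes were called lower and 7.62% higher. Between EPSCM and ES 2 were called, Jak2 higher and Bcl3 lower in EPSCM, against 11.7% and 7.97% of tested genes. Between EPSCM and 2iLIF 1 was called, Socs3, higher in EPSCM, against 10.1% higher and 5.91% lower. By adjusted p alone, 8 members differed between EPSCM and ES, 7 between EPSCM and 2iLIF and 8 between 2iLIF and ES, while 73.1%, 68.0% and 67.0% of tested genes did. The libraries of the media compared did not overlap for 8 members in each comparison, where the shares of tested genes were 74.1%, 71.1% and 70.6%. The moderated F test over the media passed at an adjusted p below 0.05 for 9 members, all but Lifr, and for 85.5% of tested genes. These shares of the 10 are near those of all tested genes except for the 3 lower in 2iLIF. Because the members were chosen with earlier results of these data known, that excess carries no weight as a test. The call of Bcl3, 1 of the 3, was lost without ES replicate 1 and after scaling to equal sums. The median difference of the members was 0.12 for 2iLIF minus ES, 0.14 for EPSCM minus ES and 0.32 for EPSCM minus 2iLIF, and over all tested genes 0.0258, 0.09 and 0.0276.

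**Figure D1:**
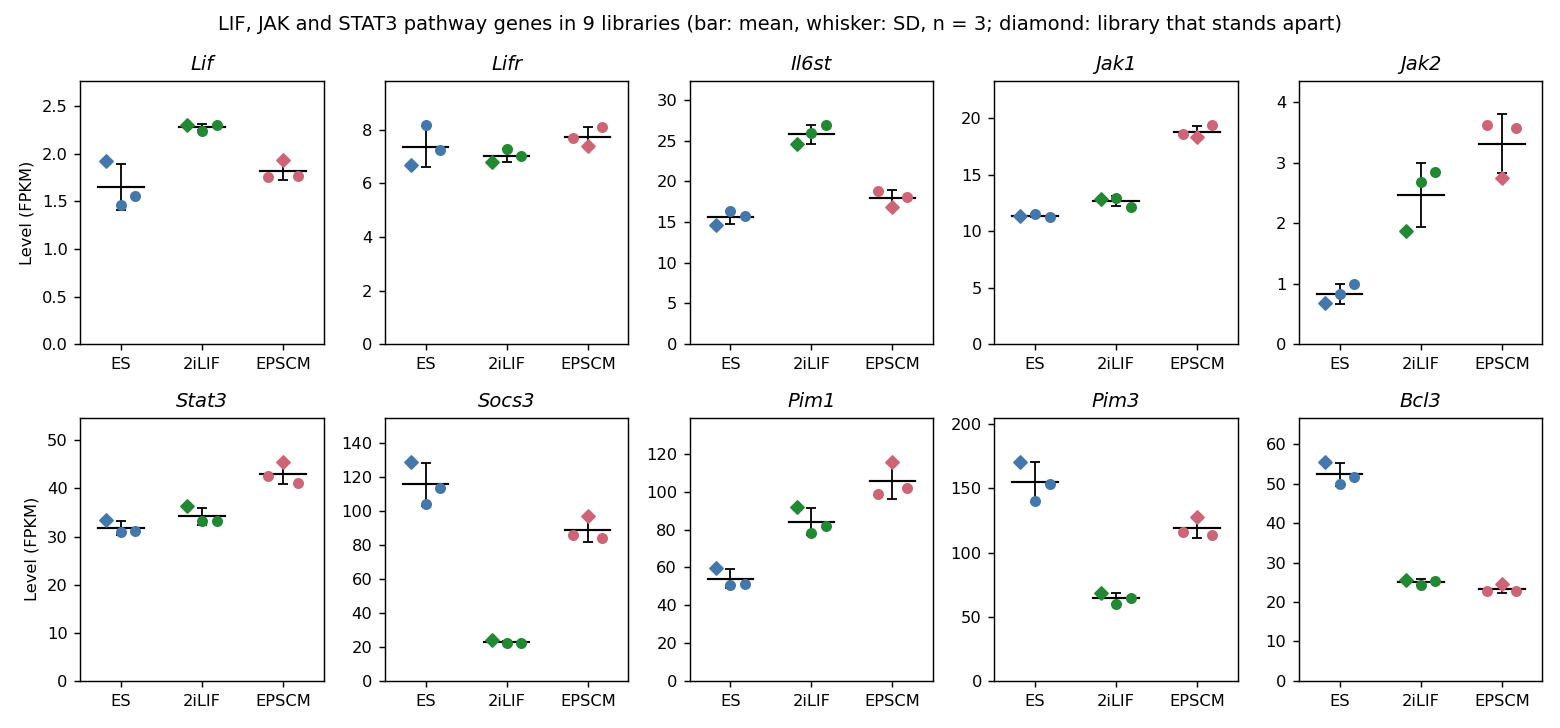
Level in FPKM (vertical axes, from 0, a scale for each gene) of the 10 pathway genes in each library of ES, 2iLIF and EPSCM; bars are means, whiskers SD (n = 3), and diamonds the library of a medium that stands apart. Socs3 lies at 22.01 to 23.8 FPKM in 2iLIF and at 83.8 FPKM or more in the other media, and Bcl3 is highest in ES, at 49.9 to 55.6 FPKM.

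Lif itself was transcribed at a low level. In ES it was at 1.92, 1.47 and 1.56 FPKM in replicates 1 to 3, in 2iLIF at 2.30, 2.24 and 2.30, and in EPSCM at 1.76, 1.93 and 1.77. The 2iLIF libraries lay above all 6 others, and those of ES and EPSCM overlapped. 2iLIF exceeded ES by 0.31 ± 0.07 (limma, adjusted p = 0.00371), below the fold limit. The difference EPSCM minus ES was 0.09 ± 0.07 (adjusted p = 0.263), -0.14 after quantile normalization and 0.17 without ES replicate 1 (adjusted p = 0.0350). EPSCM minus 2iLIF was -0.22 ± 0.07 (adjusted p = 0.0210), and its p passed 0.05 on leaving out 2iLIF replicate 1 or 3 or EPSCM replicate 1 or 3 (adjusted p = 0.0501 to 0.0634).

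Lifr, the chain that gives the receptor its specificity for LIF, had the flattest profile of the members. It was at 6.68, 8.19 and 7.25 FPKM in ES, 6.80, 7.28 and 7.03 in 2iLIF, and 7.70, 7.40 and 8.12 in EPSCM. The ES libraries spanned those of 2iLIF, and the EPSCM libraries lay above those of 2iLIF by 0.12 ± 0.08 (limma, adjusted p = 0.186). The F test gave an adjusted p of 0.344. The 95% confidence interval of the difference was -0.23 to 0.12 for 2iLIF minus ES and -0.11 to 0.24 for EPSCM minus ES. After quantile normalization 2iLIF minus ES had an adjusted p of 0.0454, and EPSCM minus ES turned to -0.11. With library numbers of 10 or more against lower ones as a covariate, EPSCM minus 2iLIF had an adjusted p of 0.0443.

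Il6st, which encodes the shared chain GP130, was at 14.7, 16.3 and 15.7 FPKM in ES, 24.5, 25.9 and 26.9 in 2iLIF, and 18.8, 16.9 and 18.1 in EPSCM. The 2iLIF libraries stood clear of all others. The difference was 0.69 ± 0.06 for 2iLIF minus ES (limma, adjusted p = 1.49e-05) and -0.50 ± 0.06 for EPSCM minus 2iLIF (adjusted p = 1.15e-04), below the fold limit in both. EPSCM minus ES was 0.19 ± 0.06 (adjusted p = 0.0238), with an adjusted p of 0.164 after quantile normalization and 0.173 after median ratio scaling. Leaving out ES replicate 1 or 3 or EPSCM replicate 1 or 3 also took it past 0.05 (adjusted p = 0.0513 to 0.0875). Within a library, where a scaling by 1 factor cancels, the ratio of Il6st to Lifr was 1.99 to 2.19 in ES, 2.23 to 2.44 in EPSCM and 3.55 to 3.83 in 2iLIF, with no overlap between media.

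Jak1, the kinase on which GP130 signalling mainly depends, had its highest level in EPSCM. It was at 11.4, 11.5 and 11.3 FPKM in ES, 12.9, 12.97 and 12.2 in 2iLIF, and 18.6, 18.4 and 19.4 in EPSCM. The media did not overlap. EPSCM exceeded ES by 0.68 ± 0.05 (limma, adjusted p = 2.96e-06) and 2iLIF by 0.53 ± 0.05 (adjusted p = 1.63e-05), below the fold limit in both. 2iLIF minus ES was 0.14 ± 0.05 (adjusted p = 0.0338), and its adjusted p was 0.549 after quantile normalization and 0.120 after median ratio scaling. That p also passed 0.05 on leaving out any ES replicate, 2iLIF replicate 1 or 2, or EPSCM replicate 1 (adjusted p = 0.0532 to 0.112). Exons of Jak1 overlap those of Raver2 on the other strand, which reached 14.6 FPKM, and the sources used here do not tell whether strand was used in counting.

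Jak2, which also binds GP130 and serves many other cytokine receptors, was the lowest member in ES and the upstream component called higher in EPSCM than in ES. It stood at 0.676, 0.822 and 0.997 FPKM in ES, 1.86, 2.68 and 2.85 in 2iLIF, and 3.62, 2.75 and 3.57 in EPSCM. All ES libraries were under 1 FPKM, so Jak2 passed the filter on low values through the other media. The number of fragments behind these values is not known. Its mean was 3.98-fold higher in EPSCM than in ES, a difference of 1.23 ± 0.13 (limma, adjusted p = 2.70e-05). The mean in 2iLIF was 2.96-fold that in ES, but the difference of 0.91 ± 0.13 (adjusted p = 2.42e-04) stayed below the fold limit on this scale. It passed the limit with a pseudocount of 0.1 (1.45) and without 2iLIF replicate 1 (1.04). EPSCM and 2iLIF overlapped in Jak2, at 0.32 ± 0.13 (adjusted p = 0.0543). The adjusted p was 0.0369 without 2iLIF replicate 3, 0.0218 without EPSCM replicate 2 and 0.00624 in the close libraries. With all libraries it was 7.58e-04 once membership of the libraries standing apart was a covariate and 0.00521 with library numbers of 10 or more as one. Smaller p-values from leaving out or fitting the libraries standing apart are no support, as said above. Jak1 was 11.3 to 16.8 times Jak2 in ES, 4.27 to 6.92 times in 2iLIF and 5.14 to 6.67 times in EPSCM.

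Stat3, the transcription factor that the receptor activates, measured 33.3, 30.9 and 31.1 FPKM in ES, 36.3, 33.2 and 33.2 in 2iLIF, and 42.5, 45.6 and 41.2 in EPSCM. EPSCM libraries lay above all others, by 0.43 ± 0.06 against ES (limma, adjusted p = 2.14e-04) and 0.32 ± 0.06 against 2iLIF (adjusted p = 0.00140), below the fold limit in both. ES and 2iLIF overlapped, at 0.10 ± 0.06 (adjusted p = 0.168). This p was 0.0226 in the close libraries, 0.00207 and 0.0482 with these 2 covariates, and 0.00565 after scaling to equal sums. The limit on p-values that rest on the libraries standing apart holds here too. Exons of Stat3 overlap those of Stat5a on the other strand, which did not exceed 2.11 FPKM.

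Socs3, the feedback inhibitor that binds GP130 and shuts off JAK activity, had the largest difference of the 10 in both comparisons with 2iLIF. In ES it was at 129, 104 and 114 FPKM, in 2iLIF at 23.8, 22.1 and 22.01, and in EPSCM at 85.5, 97.02 and 83.8. The 2iLIF libraries were far below all others, and the EPSCM libraries were all below those of ES. Socs3 fell 5.10-fold in 2iLIF relative to ES (-2.30 ± 0.09, limma, adjusted p = 5.73e-08) and was 3.92-fold higher in EPSCM than in 2iLIF (1.92 ± 0.09, adjusted p = 1.59e-07). EPSCM minus ES was -0.37 ± 0.09 (adjusted p = 0.00408), below the fold limit, with an adjusted p of 0.0685 after quantile normalization. The ratio of Socs3 to Stat3 in a library was 3.38 to 3.87 in ES, 2.01 to 2.13 in EPSCM and 0.657 to 0.666 in 2iLIF, so that 2iLIF was the medium in which the message of the factor exceeded that of its inhibitor.

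The promoters of the 3 members that fell in 2iLIF relative to ES are shown because they were read for the element that STAT dimers bind, TTCNNNGAA, which reads the same on both strands. All 10 members had a promoter in the RefSeq table (build GRCm38.p6), 12 in all, each from 250 bases before to 50 after a start site. Of these the Socs3 promoter held a match and the other 11 did not; 8.3% of all 32851 promoters of this length hold 1 or more. Capitals mark the match in the sequences, which are written 5′ to 3′ on the strand of the gene. A match describes letters and shows no binding, and only this window was searched. The Socs3 promoter lies at chr11:117969317-117969616 on the minus strand, that of Pim3 at chr15:88861944-88862243 on the plus strand and that of Bcl3 at chr7:19822706-19823005 on the minus strand. The match in Socs3, TTCTTAGAA, begins 154 bases before the start site.
Socs3: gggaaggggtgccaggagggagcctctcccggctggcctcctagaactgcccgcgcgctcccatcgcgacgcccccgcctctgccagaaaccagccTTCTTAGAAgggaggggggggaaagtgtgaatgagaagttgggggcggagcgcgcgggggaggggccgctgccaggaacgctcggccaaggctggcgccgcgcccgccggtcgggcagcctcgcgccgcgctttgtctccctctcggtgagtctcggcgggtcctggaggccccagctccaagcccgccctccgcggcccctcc
Pim3: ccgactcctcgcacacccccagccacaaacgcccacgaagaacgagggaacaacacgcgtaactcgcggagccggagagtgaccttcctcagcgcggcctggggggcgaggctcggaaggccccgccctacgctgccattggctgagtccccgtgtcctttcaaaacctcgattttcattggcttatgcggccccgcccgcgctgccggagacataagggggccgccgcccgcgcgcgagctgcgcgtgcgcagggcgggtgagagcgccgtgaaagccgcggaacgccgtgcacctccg
Bcl3: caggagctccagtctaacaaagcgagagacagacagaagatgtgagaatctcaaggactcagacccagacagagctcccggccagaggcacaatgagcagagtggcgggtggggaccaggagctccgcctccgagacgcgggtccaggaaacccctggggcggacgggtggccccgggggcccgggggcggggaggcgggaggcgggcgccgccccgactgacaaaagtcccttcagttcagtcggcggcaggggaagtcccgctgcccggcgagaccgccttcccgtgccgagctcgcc
The stricter form TTCCNGGAA, which TTCNNNGAA includes, was in none of the 12 promoters and in 1.15% of all.

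**Figure D2:**
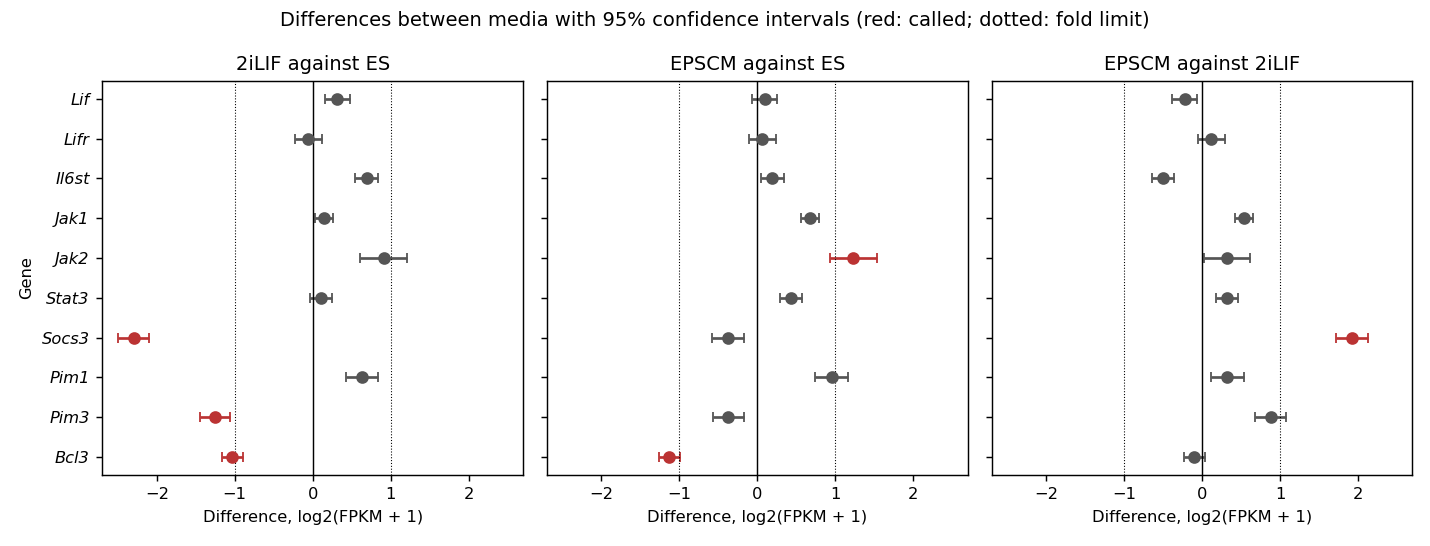
Difference on the log2(FPKM + 1) scale (horizontal axes) of each pathway gene in the 3 comparisons, with 95% confidence intervals from limma; red marks called genes and dotted lines the fold limit. Socs3 stands at -2.30 for 2iLIF against ES and at 1.92 for EPSCM against 2iLIF, while Lifr stays within 0.12 of 0 in each.

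Pim1 and Pim3 encode related serine and threonine kinases that promote survival and growth. Pim3 was at 171, 141 and 154 FPKM in ES, 68.8, 60.05 and 64.6 in 2iLIF, and 116, 128 and 114 in EPSCM. Its media did not overlap and had the order of Socs3, ES above EPSCM above 2iLIF. Pim3 fell 2.41-fold in 2iLIF relative to ES (-1.25 ± 0.09, limma, adjusted p = 2.10e-06). EPSCM minus 2iLIF was 0.88 ± 0.09 (adjusted p = 1.87e-05) and EPSCM minus ES -0.37 ± 0.09 (adjusted p = 0.00363), below the fold limit in both. The latter had an adjusted p of 0.0947 after quantile normalization.

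Pim1 had another order, EPSCM above 2iLIF above ES. Its level was 59.7, 50.7 and 51.3 FPKM in ES, 92.0, 78.4 and 81.7 in 2iLIF, and 98.8, 116 and 102 in EPSCM, with no overlap between media. EPSCM exceeded ES by 0.96 ± 0.09 (limma, adjusted p = 1.49e-05), just under the fold limit. It passed that limit without ES replicate 1 (1.03), without EPSCM replicate 1 (1.00) and after quantile normalization (1.08). 2iLIF minus ES was 0.63 ± 0.09 (adjusted p = 2.77e-04) and EPSCM minus 2iLIF 0.32 ± 0.09 (adjusted p = 0.0124). Pim3 was 2.77 to 2.997 times Pim1 in the ES libraries, 1.11 to 1.18 times in EPSCM and 0.748 to 0.790 times in 2iLIF, so the more abundant of the pair differed between media. Pim2, the remaining kinase of the family, was at 10.01 ± 0.702 FPKM (SD, n = 3) in ES, 7.74 ± 0.352 in 2iLIF and 17.4 ± 1.16 in EPSCM, and was called higher in EPSCM than in 2iLIF (1.08 ± 0.07, limma adjusted p = 1.57e-06). Exons of Pim1 overlap a predicted gene on the other strand, which was not analysed here.

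Bcl3, a nuclear member of the IκB family that works with the p50 and p52 subunits of NF-κB, was highest in ES. It was at 55.6, 49.9 and 51.6 FPKM in ES, 25.6, 24.2 and 25.3 in 2iLIF, and 22.8, 24.5 and 22.7 in EPSCM. The ES libraries lay far above all others, and those of 2iLIF and EPSCM overlapped. Bcl3 fell 2.24-fold in EPSCM relative to ES (-1.13 ± 0.06, limma, adjusted p = 3.10e-07) and 2.09-fold in 2iLIF (-1.03 ± 0.06, adjusted p = 6.44e-07). The call in 2iLIF is close to the fold limit and was lost without ES replicate 1 (-0.99) and after scaling to equal sums (-0.98). EPSCM minus 2iLIF was -0.10 ± 0.06 (adjusted p = 0.170), with a 95% confidence interval of -0.23 to 0.0361. In the close libraries it was -0.12 (adjusted p = 0.0195), and with the 2 covariates its adjusted p was 0.0110 and 0.0455. The same limit on p-values that rest on the libraries standing apart applies. Exons of Bcl3 also overlap a predicted gene on the other strand, not analysed here.

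**Figure D3:**
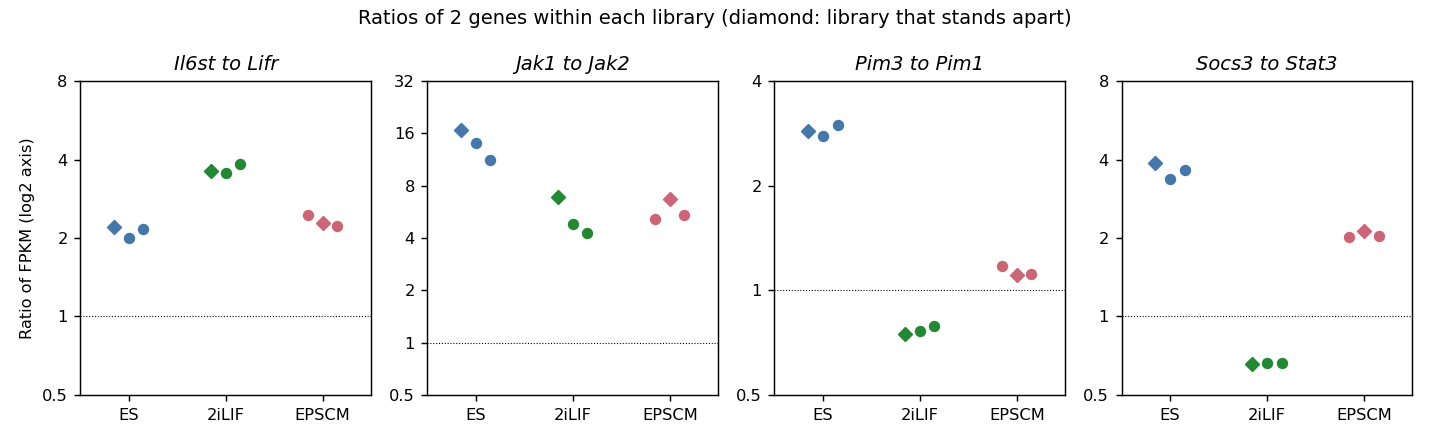
Ratio of the FPKM of 2 pathway genes in each library (vertical axes, log2 scale), by medium; diamonds mark the library that stands apart and the dotted line a ratio of 1. In 2iLIF the Pim3 to Pim1 ratio (0.748 to 0.790) and the Socs3 to Stat3 ratio (0.657 to 0.666) lie below 1, and in ES and EPSCM above it.

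The library that stands apart moved several members the same way in each medium. It was the highest of its medium in all 3 media for Stat3, Socs3, Pim1, Pim3 and Bcl3, at 1.03 to 1.18 times the mean of the close libraries, a position that 38.4% of tested genes share. For Lifr, Il6st and Jak2 it was the lowest in all 3 media, at 0.673 to 0.951 times, as for 25.3% of tested genes. In the close libraries the number of called members in each comparison was the same as in all libraries. None of the members lies on chromosome 1 or 14, whose tested genes had median differences of -0.28 and -0.18 for 2iLIF minus ES and -0.29 and -0.06 for EPSCM minus ES.

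The ligands and cofactors of the IL6 family, a list of 10 with Lif, had 6 tested genes. Il6, Il11, Il27 and Ebi3 were under 1 FPKM in every library. Osm, the ligand oncostatin M, was at 6.85 ± 0.569 FPKM in 2iLIF, 0.316 ± 0.0499 in ES and 0.499 ± 0.0937 in EPSCM (SD, n = 3), and was called higher in 2iLIF than in ES (2.57 ± 0.07, limma adjusted p = 1.06e-08). Osm passed the filter through 2iLIF, the medium where it is high. Ctf1, cardiotrophin, was at 5.18 ± 0.213 FPKM in 2iLIF and 2.03 ± 0.452 in EPSCM, called lower in EPSCM (-1.04 ± 0.11, limma adjusted p = 4.15e-05). Between 2iLIF and ES 1 of 6 was called higher and 0 lower, against 7.62% and 7.12% of all tested genes. Between EPSCM and ES none was called by limma, while 3 of 6 had an adjusted p below 0.05, as did 73.1% of all tested genes.

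Of 7 receptor chains of the family, 6 were tested, and Osmr was under 1 FPKM throughout. Il6ra, the chain that binds IL6, was at 7.96 ± 0.218 FPKM in 2iLIF, 0.662 ± 0.137 in ES and 0.949 ± 0.0411 in EPSCM, and was called higher in 2iLIF than in ES (2.43 ± 0.07, limma adjusted p = 1.06e-08). Il6ra, too, passed the filter through 2iLIF. Cntfr, the chain for ciliary neurotrophic factor, which signals through LIFR and GP130, showed the reverse. It was at 12.6 ± 1.11 FPKM in ES, 5.72 ± 0.739 in EPSCM and 0.40 ± 0.0586 in 2iLIF. Cntfr fell in 2iLIF (-3.28 ± 0.09, limma adjusted p = 1.14e-08) and in EPSCM (-1.02 ± 0.09, limma adjusted p = 1.07e-05) relative to ES, the latter call lost after scaling to equal sums (-0.99). The mean of Cntfr in ES was above that of Lifr, and so was the mean of Il6ra in 2iLIF. The other 4 tested chains, Lifr and Il6st among them, were not called in any comparison. Between 2iLIF and ES 1 of 6 was called higher and 1 lower, against 7.62% and 7.12% of all tested genes. Between EPSCM and ES 0 were called higher and 1 lower, against 11.7% and 7.97%. Between EPSCM and 2iLIF 1 was called higher and 1 lower, against 10.1% and 5.91%.

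**Figure D4:**
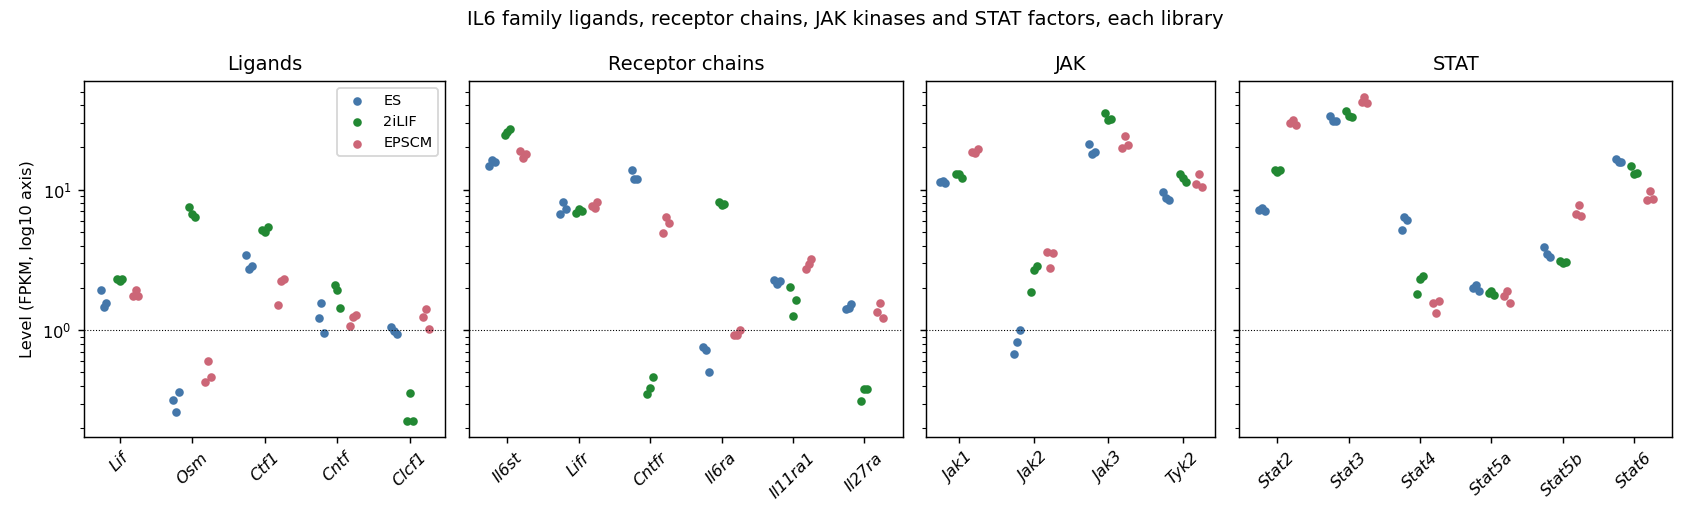
Level in FPKM (vertical axis, log10 scale) of tested IL6 family ligands, receptor chains, JAK kinases and STAT factors in each library; colours mark the medium and the dotted line 1 FPKM. Osm and Il6ra exceed 1 FPKM in all 2iLIF libraries, and Stat2 reaches 29.9 ± 1.17 FPKM in EPSCM.

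Of the 4 JAK kinases, Jak2 was the one called in any comparison. It was called higher in EPSCM than in ES, as were 11.7% of all tested genes. In the other comparisons 0 of 4 were called, against 16.1% of all tested genes between EPSCM and 2iLIF and 14.7% between 2iLIF and ES. Jak3, known mainly from blood cells, was at 19.2 ± 1.63 FPKM in ES, 32.8 ± 2.25 in 2iLIF and 21.6 ± 2.21 in EPSCM, with a mean above that of Jak1 in each medium. Tyk2 was at 8.98 ± 0.640, 12.2 ± 0.785 and 11.5 ± 1.38 FPKM.

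Of the 7 STAT factors, Stat3 had the highest mean in each medium, but others had larger differences. Stat2, which acts in the interferon response, rose from 7.22 ± 0.141 FPKM in ES to 29.9 ± 1.17 in EPSCM (1.91 ± 0.05, limma adjusted p = 1.24e-08) and stood at 13.6 ± 0.317 in 2iLIF. Stat4 fell from 5.86 ± 0.644 FPKM in ES to 2.18 ± 0.336 in 2iLIF (-1.11 ± 0.10, limma adjusted p = 1.21e-05) and 1.499 ± 0.148 in EPSCM (-1.46 ± 0.10, adjusted p = 1.65e-06). Stat4 lies on chromosome 1, whose genes had the negative medians given above; its part in the difference was not tested. Of the 7, 1 was called lower and 0 higher between 2iLIF and ES, against 7.12% and 7.62% of all tested genes. Between EPSCM and 2iLIF 1 was called higher, Stat2, and 0 lower, against 10.1% and 5.91%.

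All 8 genes of the SOCS family were tested. Between 2iLIF and ES 0 were called higher and 2 lower, against 7.62% and 7.12% of all tested genes. Between EPSCM and ES 0 were called higher and 1 lower, against 11.7% and 7.97%. Between EPSCM and 2iLIF 1 was called higher and 0 lower, against 10.1% and 5.91%. Besides Socs3, Cish was called, an inhibitor induced by STAT5 in many cells. It fell from 4.28 ± 0.380 FPKM in ES to 0.940 ± 0.0986 in 2iLIF (-1.44 ± 0.10, limma adjusted p = 2.00e-06) and 1.63 ± 0.338 in EPSCM (-1.01 ± 0.10, adjusted p = 1.50e-05), the latter call lost after scaling to equal sums (-0.98). Socs1, another inhibitor of JAK kinases, was at 5.10 ± 0.667 FPKM in ES, 2.82 ± 0.570 in 2iLIF and 5.56 ± 0.268 in EPSCM, and was not called. Socs2 was at 25.3 ± 1.152, 26.5 ± 2.46 and 15.9 ± 0.963 FPKM. Of 8 PIAS proteins and phosphatases that restrain or relay the pathway, limma called none in any comparison, while 5, 5 and 3 had an adjusted p below 0.05 between EPSCM and ES, between EPSCM and 2iLIF, and between 2iLIF and ES, where 73.1%, 68.0% and 67.0% of all tested genes did.

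A wider list of 16 genes, taken here as induced by LIF through STAT3 in mouse embryonic stem cells, holds Socs3, Pim1, Pim3, Bcl3 and Stat3. It had 15 tested genes, and how far each depends on STAT3 in these media was not tested. In 2iLIF 7 were called lower and 2 higher than in ES, against 7.12% and 7.62% of all tested genes. The 7 include Socs3, Pim3 and Bcl3, already counted among the members, and the list was chosen with earlier results of these data known. In EPSCM 5 were lower and 3 higher than in ES, against 7.97% and 11.7% of all tested genes. Compared with 2iLIF, 4 were lower and 3 higher in EPSCM, against 5.91% and 10.1%. The median difference in these 3 comparisons was -0.90, -0.37 and 0.29, against 0.0258, 0.09 and 0.0276 over all tested genes. Leaving out chromosomes 1, 14 and Y, and with them Gbx2, Tfcp2l1 and Klf5, 6 of 12 were lower and 1 higher in 2iLIF than in ES, and 3 lower and 3 higher in EPSCM. That alternative was chosen after seeing the data.

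The genes of this list followed several patterns. Junb, an AP-1 factor, fell from 37.9 ± 5.25 FPKM in ES to 7.31 ± 0.533 in 2iLIF (-2.22 ± 0.11, limma adjusted p = 2.82e-07) and 11.8 ± 1.31 in EPSCM (-1.60 ± 0.11, adjusted p = 1.73e-06). Myc, the growth regulator, fell from 37.3 ± 2.26 FPKM in ES to 4.48 ± 0.197 in 2iLIF (-2.81 ± 0.07, limma adjusted p = 6.18e-09) and 0.343 ± 0.0855 in EPSCM (-4.84 ± 0.07, adjusted p = 7.33e-10). Junb and Myc thus fell in both media, whereas Ier3 and Icam1 were highest in EPSCM. Ier3, an early response gene, was at 15.8 ± 2.04 FPKM in ES, 3.51 ± 0.583 in 2iLIF and 42.2 ± 7.04 in EPSCM. It fell in 2iLIF (-1.90 ± 0.14, limma adjusted p = 3.40e-06) and rose in EPSCM (1.36 ± 0.14, adjusted p = 2.36e-05) relative to ES. Icam1, an adhesion molecule, was 4.66-fold higher in EPSCM than in ES, at 197 ± 18.5 FPKM (2.19 ± 0.08, limma adjusted p = 5.79e-08).

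Fos, another AP-1 factor, rose from 1.86 ± 0.309 FPKM in ES to 7.35 ± 0.939 in 2iLIF (1.55 ± 0.11, limma adjusted p = 2.54e-06) and 9.18 ± 0.829 in EPSCM (1.83 ± 0.11, adjusted p = 6.88e-07). Tfcp2l1 and Klf4, transcription factors of the naive state named here after their values were seen, had their highest levels in 2iLIF, where Socs3 was lowest, while Gbx2 and Klf5, pluripotency factors of the same list, did not. Tfcp2l1 was at 97.3 ± 11.1 FPKM in ES, 231 ± 22.6 in 2iLIF and 74.3 ± 6.76 in EPSCM, and rose in 2iLIF relative to ES (1.24 ± 0.11, limma adjusted p = 1.05e-05). Klf4 was at 85.9 ± 3.16, 143 ± 4.67 and 61.5 ± 0.927 FPKM, and was called lower in EPSCM than in 2iLIF (-1.21 ± 0.05, limma adjusted p = 8.46e-08). Gbx2 fell from 63.8 ± 4.82 FPKM in ES to 14.4 ± 1.25 in 2iLIF (-2.08 ± 0.08, limma adjusted p = 4.89e-08) and 3.60 ± 0.122 in EPSCM (-3.81 ± 0.08, adjusted p = 3.02e-09). Klf5, also named after its values were seen, was at 190.3 ± 9.56, 101 ± 5.67 and 69.1 ± 3.02 FPKM in ES, 2iLIF and EPSCM, called lower in EPSCM than in ES (-1.45 ± 0.06, limma adjusted p = 1.21e-07) and at -0.90 ± 0.06 for 2iLIF minus ES. Tfcp2l1 and Gbx2 lie on chromosome 1 and Klf5 on chromosome 14, whose part in their differences was not tested.

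**Figure D5:**
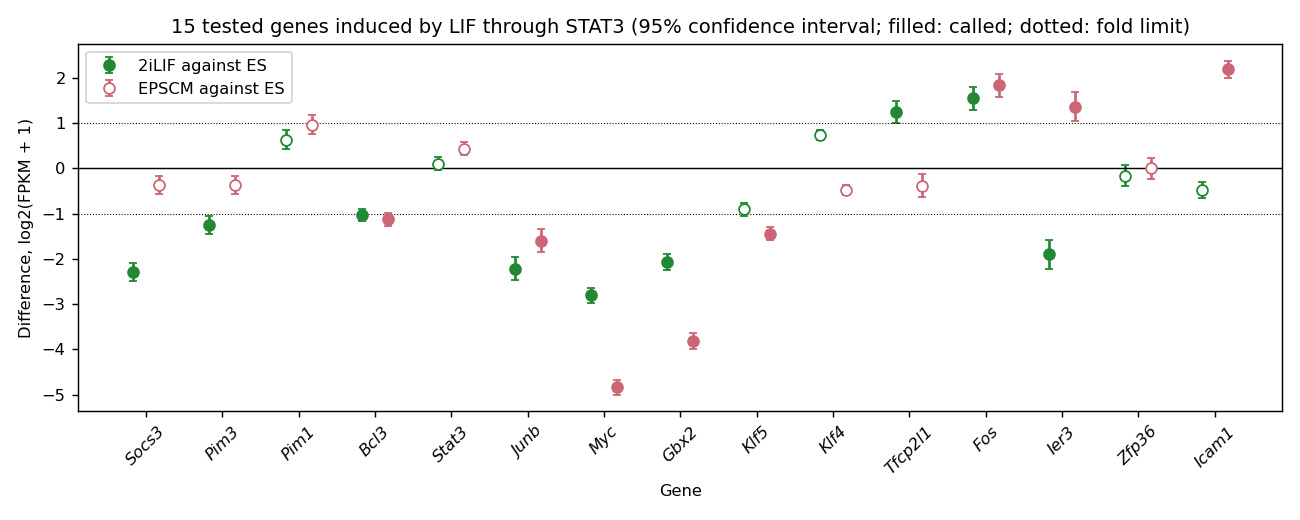
Difference on the log2(FPKM + 1) scale (vertical axis) of the 15 tested genes of the list taken as induced by LIF through STAT3. Green is 2iLIF against ES and pink EPSCM against ES, with 95% confidence intervals. Filled points are called and dotted lines mark the fold limit. Both comparisons share the ES libraries. Ier3 is called in opposite directions, at -1.90 in 2iLIF and 1.36 in EPSCM.

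The genes whose levels followed Socs3 most closely over the 9 libraries were sought among 9113 tested genes whose mean reached 5 FPKM in some medium. The 5 with the highest Pearson correlation of log2(FPKM + 1) were Elavl3, Dnmt3l, Mfng, Fbxo2 and Sult4a1, with r from 0.9975 to 0.9984. Dnmt3l, a cofactor of the DNA methyltransferases, had means of 103, 17.5 and 76.6 FPKM in ES, 2iLIF and EPSCM, and Fbxo2 31.6, 4.79 and 23.6. The libraries fall into 3 media and these genes were picked for the likeness, so it describes levels and carries no test.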

How the data were processed

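RNA of 9 libraries was sequenced with a stranded mRNA kit, per the labels' protocols. The deposited table holds FPKM values that the authors made with STAR and Cuffnorm on mm9, per the submitters' processing notes. The sources used here do not name versions, annotation, scaling between libraries or use of strand. FPKM is relative, so very abundant genes shift the rest. Each column was mapped to 1 sample by its title.

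Values were taken as log2(FPKM + 1). The filter kept genes that reached 1 FPKM in 3 or more libraries, 12330 of 24819, and all 10 members passed. They were tested in 1 fit over all libraries with limma 3.58.1 in R 4.3.3 (trend in the variance prior, Benjamini-Hochberg adjustment). The fit was tested on simulated data. An exact permutation test of 3 against 3 libraries cannot go below 0.1 and was not used. Promoters and chromosomes are RefSeq's (GRCm38.p6), matched by symbol.

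The members and gene lists were chosen with earlier results of these data known. The naming rule covers all members, at most 4 called genes per list and comparison with 1 FPKM or more in the higher medium, other JAK, STAT, PIM, SOCS and receptor genes, and the 5 genes most like Socs3. Replicates follow the order of the labels. Alternatives were a pseudocount of 0.1, other filters, 3 scalings, 2 covariates, no trend, only the media compared, the close libraries, and leaving out each library. Results for some genes of the lists are not reported here.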

Additional observations from a re-analysis of the deposited data

How the results depend on the processing

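Of 79 alternative values for the numbers of members called or passing the F test, 78 stayed within 1.5 times the reported number. The exception was EPSCM against ES with a mean of 5 FPKM or more required, which gave 1 called member because Jak2 was not tested there. With counts this small, a change from 2 to 3 or from 3 to 4 stays within that limit, so the 78 show little about stability. Of 594 alternative values of single members, 583 kept their direction and their side of the call, 5 gained a call, 2 lost one and 4 reversed. Several alternatives leave a difference unchanged by construction, such as no trend, only the media compared, or leaving out a library of the medium not compared. The 583 are therefore no measure of stability. The reversals were Lif (-0.14) and Lifr (-0.11) in EPSCM against ES after quantile normalization, Lifr (-0.0232) there after median ratio scaling, and Lifr in 2iLIF against ES without ES replicate 2 (0.0131); none was called. Leaving out each library in turn gave 2 to 3 called members for EPSCM against ES, 1 to 1 for EPSCM against 2iLIF, 2 to 4 for 2iLIF against ES, and 9 to 9 passing the F test; the difference of Lifr between 2iLIF and ES then ran from -0.12 to 0.0131. The cause of these shifts was not tested. No paired analysis was possible because the labels share no replicate numbers between media. Jak2 and Lif have the lowest levels among the members, and the number of fragments behind them is not known.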

Other observations

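The NF-κB proteins that BCL3 works with, and their inhibitor, were a list of 6, of which 5 were tested. Nfkb1, which encodes p50, was at 15.2 ± 0.893 FPKM in ES, 6.64 ± 0.208 in 2iLIF and 4.43 ± 0.124 in EPSCM (SD, n = 3). It fell in 2iLIF (-1.08 ± 0.06, limma adjusted p = 5.26e-07) and in EPSCM (-1.57 ± 0.06, adjusted p = 6.31e-08) relative to ES, the 2 media in which Bcl3 was also lower. Relb, another subunit, had its highest level in 2iLIF, at 18.2 ± 1.36 FPKM, with 5.91 ± 0.796 in ES and 4.10 ± 0.708 in EPSCM, and was called higher in 2iLIF than in ES (1.48 ± 0.12, limma adjusted p = 5.26e-06) and lower in EPSCM than in 2iLIF (-1.92 ± 0.12, adjusted p = 8.70e-07). Nfkb2, which encodes p52, Rela and Nfkbia were not called in any comparison. Of the 5 tested, 1 was called higher and 1 lower between 2iLIF and ES, against 7.62% and 7.12% of all tested genes. Between EPSCM and ES 0 were called higher and 1 lower, against 11.7% and 7.97%. Between EPSCM and 2iLIF 0 were called higher and 1 lower, against 10.1% and 5.91%.

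The LIF receptor also feeds ERK and PI3K signalling through adaptors, a list of 12 genes with 11 tested. Of these 2 were called higher in EPSCM than in ES and 1 higher in 2iLIF than in ES, against 11.7% and 7.62% of all tested genes. Between EPSCM and 2iLIF limma called none, while 7 of 11 had an adjusted p below 0.05, as did 68.0% of all tested genes. Pik3r1, a regulatory subunit of PI3K, was at 1.05 ± 0.0696 FPKM in ES, 4.87 ± 0.202 in 2iLIF and 3.57 ± 0.304 in EPSCM. It rose in 2iLIF (1.52 ± 0.07, limma adjusted p = 1.18e-07) and in EPSCM (1.16 ± 0.07, adjusted p = 5.17e-07) relative to ES, the latter call lost after quantile normalization (0.98). Sos1, which activates RAS, was at 4.74 ± 0.612 FPKM in ES and 10.5 ± 1.14 in EPSCM, at the fold limit (1.00 ± 0.11, limma adjusted p = 4.15e-05), a call lost after quantile normalization (0.84), after median ratio scaling (0.91) and in the close libraries (0.999).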
